A study of Homo sapiens with 6 samples.

Results

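Small nucleolar RNA host genes were followed through a transcriptome of ovarian cancer cells treated with the PARP inhibitor Olaparib. The 10 genes GAS5, SNHG1, SNHG5, SNHG6, SNHG7, SNHG8, SNHG12, SNHG15, SNHG16 and SNHG29 were taken by name from a table of 63677 gene identifiers. Each symbol matched 1 identifier, and all 10 were among the 21729 genes that had more than 10 counts in total. UWB1.289, a human BRCA1-deficient ovarian carcinoma line whose genotype the sample labels give as WT, was kept for 24 h in medium with Olaparib (3 samples) or with the vehicle DMSO (3 samples). The labels and the study's methods put the Olaparib concentration at 4 µM, while the design text of the series gives 10 µM. Both groups are cultures of 1 cell line and share its BRCA1 deficiency, so the values describe this line alone, and the p values measure the spread between these dishes.

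Small nucleolar RNAs (snoRNAs) guide chemical changes of ribosomal RNA. Those with box C/D motifs guide ribose methylation, and those with box H/ACA motifs guide the conversion of uridine to pseudouridine. In human cells most of them are cut out of introns of longer transcripts, and the host genes described here are such transcripts whose exons code for no known long protein. The intron yields the snoRNA, while the spliced exons are exported, and in many hosts they are degraded by nonsense-mediated decay as ribosomes engage them. Several hosts start with a stretch of pyrimidines, as ribosomal protein transcripts do, and the spliced GAS5 RNA is known to accumulate when growth stops. Libraries of poly(A) RNA, as made here, measure the spliced host and not the mature snoRNA, which has no poly(A) tail.

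RefSeq places 28 box C/D and 8 box H/ACA snoRNA genes inside the 10 hosts, and 1 further snoRNA gene without a class in its symbol. GAS5 holds 10 box C/D snoRNAs and 1 of the H/ACA class, and SNHG1 holds 8 box C/D snoRNAs. SNHG16 and SNHG29 hold 3 box C/D snoRNAs each, SNHG5 holds 2, and SNHG6 holds 1. SNHG7 with 2, SNHG8 with 1 and SNHG15 with 1 hold H/ACA snoRNAs, and SNHG12 holds 3 H/ACA snoRNAs and 1 box C/D snoRNA. In GENCODE 44 on GRCh38 the hosts lie on chromosomes 1 (GAS5, 173858559 to 173868882, and SNHG12, 28578538 to 28583132), 4 (SNHG8, 118278703 to 118285316), 6 (SNHG5, 85650491 to 85678932), 7 (SNHG15, 44983019 to 44986961), 8 (SNHG6, 66920561 to 66926398), 9 (SNHG7, 136721366 to 136728184), 11 (SNHG1, 62851978 to 62855953) and 17 (SNHG16, 76557727 to 76670985, and SNHG29, 16438767 to 16480249). All 10 are annotated as lncRNA genes.

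The start regions are shown because they are what several hosts share beyond their name. RefSeq gives a start region for 8 of the 10 hosts on GRCh38.p14, and the sequences run from 40 bases before the annotated start to 20 bases after it, on the strand of the gene. Capitals mark TATAA between 40 and 20 bases before the start, and CTTTT or CTTTC beginning within 10 bases of it. SNHG3 and DANCR, a pair of other snoRNA hosts picked because they fell after Olaparib, are added for comparison. Neither holds a marked motif, and GAS5 and SNHG1 hold none either. A link between the motifs and a fall was not tested.
SNHG5 (chr6:85678714-85678773, minus strand): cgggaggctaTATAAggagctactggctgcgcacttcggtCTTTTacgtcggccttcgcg
SNHG8 (chr4:118278722-118278781, plus strand): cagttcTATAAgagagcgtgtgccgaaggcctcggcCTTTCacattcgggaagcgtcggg
SNHG12 (chr1:28581854-28581913, minus strand): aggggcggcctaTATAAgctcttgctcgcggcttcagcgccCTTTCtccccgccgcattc
SNHG7 (chr9:136728165-136728224, minus strand): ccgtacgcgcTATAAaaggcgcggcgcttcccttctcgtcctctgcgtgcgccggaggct
SNHG16 (chr17:76557724-76557783, plus strand): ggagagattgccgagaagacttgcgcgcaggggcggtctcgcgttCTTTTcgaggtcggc
SNHG29 (chr17:16438947-16439006, plus strand): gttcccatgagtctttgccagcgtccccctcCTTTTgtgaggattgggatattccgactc
SNHG1 (chr11:62855866-62855925, minus strand): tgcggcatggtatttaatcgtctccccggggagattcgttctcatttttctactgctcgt
GAS5 (chr1:173869026-173869085, minus strand): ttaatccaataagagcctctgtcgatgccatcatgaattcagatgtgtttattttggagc
SNHG3 (chr1:28505903-28505962, plus strand): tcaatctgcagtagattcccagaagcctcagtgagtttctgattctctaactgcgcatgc
DANCR (chr4:52712354-52712413, plus strand): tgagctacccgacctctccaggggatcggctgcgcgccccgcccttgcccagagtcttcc

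CTTTT or CTTTC was found in 5 of the 8 hosts on the sense strand, against 6.50% of the 35114 promoters in the table, and TATAA in 4 of the 8, against 3.77%. On the opposite strand neither motif was found in the 8 hosts, against 4.30% and 1.59% of all promoters. The motifs were chosen after these sequences had been read, so the counts are a description. An annotated start need not be the one used, and the canonical GENCODE 44 transcripts start elsewhere in several hosts. Of the 9 read (all but SNHG6), those of GAS5 and SNHG29 begin with CTTTTC and that of SNHG12 with CTCCT. The other 6, SNHG1, SNHG5, SNHG7, SNHG8, SNHG15 and SNHG16, have no opening run of 5 or more pyrimidines, although SNHG5, SNHG8 and SNHG16 hold CTTTT or CTTTC near the RefSeq start. The first 30 bases of the transcripts with CTTTTC are shown with the opening run of pyrimidines in capitals, because neither RefSeq start region has this run at its start.
GAS5 transcript: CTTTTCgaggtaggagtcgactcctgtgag
SNHG29 transcript: CTTTTCattcccgttgttatggagggccac

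The libraries held 35360458 to 39640775 counts. Mitochondrial genes took 5.68% to 6.11% of them. Replicates of 1 group differed by more than sampling noise, with chi-square per degree of freedom of 1.81 to 4.11 over 15525 genes, and all 6 were counted separately. All 6 epithelial markers were detected, the lowest of them, CDH1, at 34.5 CPM (counts per 1e+06 counts of the library) or more. Of 6 Müllerian or serous carcinoma markers, PAX8, MUC16, SOX17 and MECOM were detected at 25.8 CPM or more, while WT1 and EMX2 had at most 2 counts in any library. Markers of other cells were mostly near 0. The highest of the 5 leukocyte markers, PTPRC, reached 2.04 CPM, and the fibroblast markers DCN, LUM and PDGFRB had at most 3 counts, with COL1A1 at 6.29 to 8.94 CPM. Among 4 endothelial markers PECAM1 was at 0, whereas CDH5 had 39.7 to 44.7 CPM in both groups.

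After 24 h of Olaparib, none of the 10 hosts changed at an adjusted p value under 0.05. Over all genes tested, 730 genes (3.36%) passed in the quasi-likelihood test of edgeR, with Benjamini-Hochberg adjustment, 2.15% higher and 1.21% lower. At an unadjusted p under 0.05, 2 of the 10 passed, SNHG5 and SNHG7, both higher, beside 14.8% of all genes. DESeq2's Wald test and limma voom also called 0 of the 10 at an adjusted p under 0.05, with 1 at an unadjusted p under 0.05 each. The log2 fold changes (log2FC, Olaparib minus DMSO, given from here with ± the standard error of the fit) ran from -0.045 to 0.100, with a median of 0.022, beside a median of -0.0042 over all genes tested. They were positive for 8 hosts and negative for 2, and 48.6% of all genes were positive. Together the 10 hosts took 0.131% to 0.136% of the counts of each library. In CPM, normalized counts scaled by the TMM factors of edgeR, their sum was 1342 ± 17.4 (SD, n = 3) in the Olaparib samples and 1324 ± 28.9 (n = 3) in the DMSO samples. In bulk RNA, fewer expressing cells and less RNA per cell cannot be told apart.

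**Figure D1:**
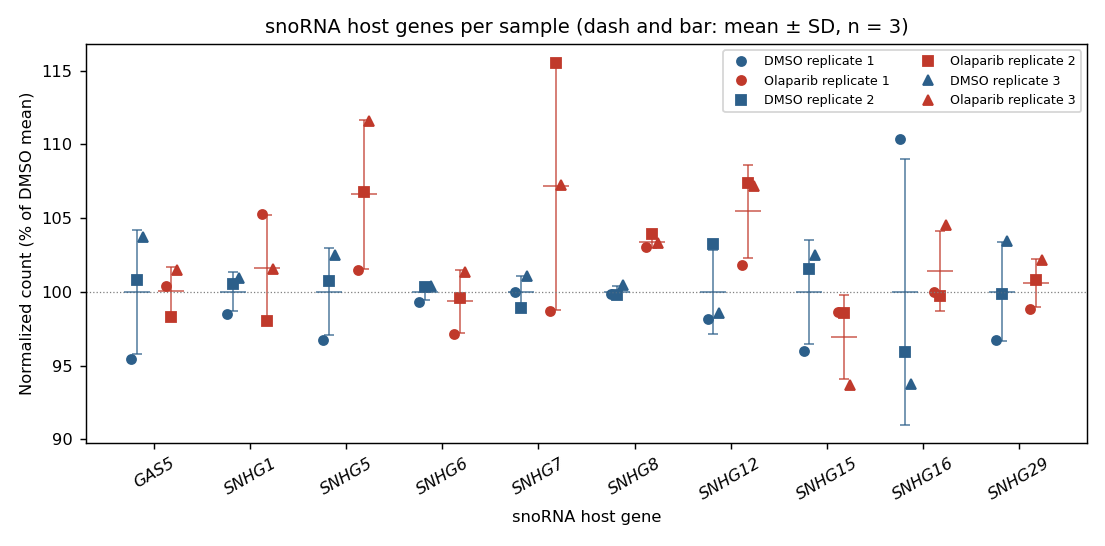
Normalized counts of the 10 hosts in each sample, as a percentage of the DMSO mean of the gene (vertical axis), with DMSO in blue and Olaparib in red; dashes and bars are the mean and SD of 3 samples. The groups overlap in every host except SNHG8, the Olaparib samples of SNHG7 are spread widely, and SNHG16 in DMSO replicate 1 stands away from the other DMSO samples.

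GAS5 and SNHG29 were the hosts with the most counts, and both stayed within the spread of the replicates. GAS5 (ENSG00000234741), whose spliced RNA is known for its accumulation in growth-arrested cells, had 13380, 13099 and 13525 normalized counts in the Olaparib samples and 12724, 13436 and 13826 in the DMSO samples. The DMSO samples enclosed all 3 Olaparib samples. The log2FC of GAS5 was 5.1e-04 ± 0.030 (adjusted p = 0.994), with a 95% confidence interval of -0.060 to 0.061, a fall of 4.08% to a rise of 4.33%. SNHG29 (ENSG00000175061), host of SNORD49A, SNORD49B and SNORD65, had 13235, 13498 and 13673 normalized counts after Olaparib. After DMSO it had 12950, 13369 and 13846, again enclosing the Olaparib samples. Its log2FC was 0.0085 ± 0.029 (adjusted p = 0.939), with an interval of -0.050 to 0.067. In GAS5 and SNHG29 alike the lowest library of all was DMSO replicate 1 and the highest DMSO replicate 3, which also had the fewest and the most total counts.

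SNHG1 and SNHG6 did not pass the test either. SNHG1 (ENSG00000255717), which holds SNORD22 and SNORD25 to SNORD31 in its introns, had 6676, 6219 and 6439 normalized counts in the Olaparib samples and 6246, 6378 and 6403 in the DMSO samples. The highest and the lowest library were both Olaparib samples. The log2FC of SNHG1 was 0.023 ± 0.032 (adjusted p = 0.810), with an interval of -0.042 to 0.088. SNHG6 (ENSG00000245910), host of SNORD87, had 3965, 4065 and 4136 normalized counts after Olaparib against 4055, 4094 and 4097 after DMSO, and the groups overlapped. This gave SNHG6 a log2FC of -0.0095 ± 0.034 (adjusted p = 0.943), with an interval of -0.079 to 0.060.

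SNHG5 and SNHG7 lay closest to a change. SNHG5 (ENSG00000203875), host of SNORD50A and SNORD50B, had 4470, 4706 and 4916 normalized counts in the Olaparib samples and 4263, 4440 and 4516 in the DMSO samples. Olaparib replicates 2 and 3 were above all DMSO samples, and Olaparib replicate 1 was below DMSO replicate 3. Its mean went from 4406 ± 130 to 4697 ± 223 (SD, n = 3 each), a log2FC of 0.092 ± 0.036 with an unadjusted p of 0.0163 and an adjusted p of 0.189 in the same edgeR test. The interval, 0.018 to 0.17, corresponds to a rise of 1.26% to 12.2%. It is not adjusted for the number of genes, and SNHG5 had the smallest p of the listed hosts. Without Olaparib replicate 1 the log2FC was 0.13 and the adjusted p 0.0389, and without Olaparib replicate 3 they were 0.056 and 0.618.

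SNHG7 (ENSG00000233016), host of SNORA17A and SNORA17B, had 1417, 1659 and 1540 normalized counts in the Olaparib samples and 1436, 1420 and 1452 in the DMSO samples. Olaparib replicate 1 was the lowest of all 6 samples for SNHG7 and Olaparib replicate 2 the highest. The mean was 1539 ± 121 against 1436 ± 15.7 (SD, n = 3 each), and the coefficient of variation was 7.85% among the Olaparib samples against 1.09% among the DMSO samples. Its log2FC of 0.100 ± 0.048 had an unadjusted p of 0.0444 and an adjusted p of 0.316 in the edgeR test. Leaving out Olaparib replicate 1 gave 0.16 (adjusted p = 0.0374), and leaving out Olaparib replicate 2 gave 0.043 (adjusted p = 0.760).

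SNHG8 and SNHG12 had positive fold changes that did not pass the test. SNHG8 (ENSG00000269893), host of SNORA24, had 1416, 1428 and 1420 normalized counts in the Olaparib samples and 1372, 1371 and 1381 in the DMSO samples. It was the only host whose groups did not overlap, all 3 Olaparib samples lying above all 3 DMSO samples, which held for 10.0% of all genes tested, beside 9.29% with all Olaparib samples lower and 19.3% in either direction. The log2FC of SNHG8 was 0.048 ± 0.042 (adjusted p = 0.666), with an interval of -0.038 to 0.13. The coefficients of variation of SNHG8, 0.427% and 0.374%, were below the 2.67% that counting alone gives at its depth, whereas the fit borrows its spread from all genes. SNHG12 (ENSG00000197989), host of SNORA16A, SNORA44, SNORA61 and SNORD99, had 1354, 1428 and 1425 normalized counts after Olaparib. After DMSO it had 1305, 1373 and 1310, so that Olaparib replicate 1 lay below DMSO replicate 2. For SNHG12 the log2FC was 0.077 ± 0.044 (adjusted p = 0.441), with an interval of -0.013 to 0.17.

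SNHG15 and SNHG16 completed the list. SNHG15 (ENSG00000232956), host of SNORA9, had 1323, 1323 and 1257 normalized counts in the Olaparib samples and 1288, 1362 and 1375 in the DMSO samples. Its log2FC of -0.045 ± 0.045 was the lowest of the 10 (adjusted p = 0.713), and the interval of -0.14 to 0.046 corresponds to a fall of 9.01% to a rise of 3.23%. SNHG16 (ENSG00000163597), host of SNORD1A, SNORD1B and SNORD1C, had 2497, 2490 and 2611 normalized counts in the Olaparib samples and 2756, 2395 and 2341 in the DMSO samples. DMSO replicate 1 was above every Olaparib sample and the other DMSO samples were below them. With all samples the log2FC of SNHG16 was 0.021 ± 0.047 (adjusted p = 0.893), and without DMSO replicate 1 it was 0.099 (adjusted p = 0.240).

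**Figure D2:**
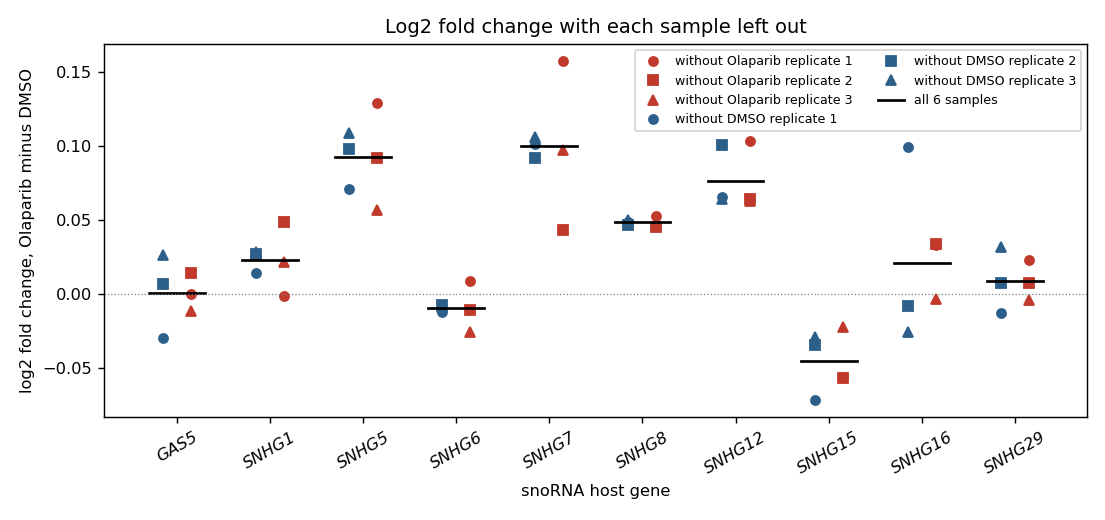
Log2FC of each host (vertical axis) with all 6 samples (black line) and with each sample left out in turn (symbols). SNHG5, SNHG7, SNHG8 and SNHG12 stay above 0 and SNHG15 below 0 throughout, while GAS5, SNHG1, SNHG6, SNHG16 and SNHG29 cross 0.

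The spread of the hosts between replicates was that of other genes at their level. The median coefficient of variation within groups was 2.92% over the 10 hosts and 2.71% over the 5398 genes whose CPM lay between those of the lowest and the highest host. The median absolute log2FC was 0.034 for the hosts and 0.041 for these genes, of which 5.84% had an adjusted p under 0.05. Of the 6 libraries, DMSO replicate 1 held the lowest value in 4 of the 10 hosts, and Olaparib replicate 2 and DMSO replicate 3 the highest in 3 each.

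Levels between hosts were compared per length of the transcript, as CPM per kilobase. With the length of all annotated exons, GAS5 was highest at 72.3, followed by SNHG6 and SNHG1 at 43.0 each and SNHG29 at 40.1. SNHG16 came next at 11.6, then SNHG5 at 9.65, SNHG15 at 8.96, SNHG12 at 8.56, SNHG7 at 8.12 and SNHG8 at 5.65. The ranges over the 6 samples overlapped between SNHG6 and SNHG1 and between each neighbouring pair from SNHG5 to SNHG7 in this order. The order depends on the gene model. With the length of the canonical transcript, SNHG29 was highest at 810, followed by GAS5 at 464, SNHG1 at 147 and SNHG16 at 135, and SNHG8 was again lowest at 6.06. Here the ranges of SNHG1 and SNHG16 overlapped, as did those of SNHG12 (19.5) and SNHG7 (16.9). The lengths come from GENCODE 44, whereas the identifiers of the table look like those of an older gene set.

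**Figure D3:**
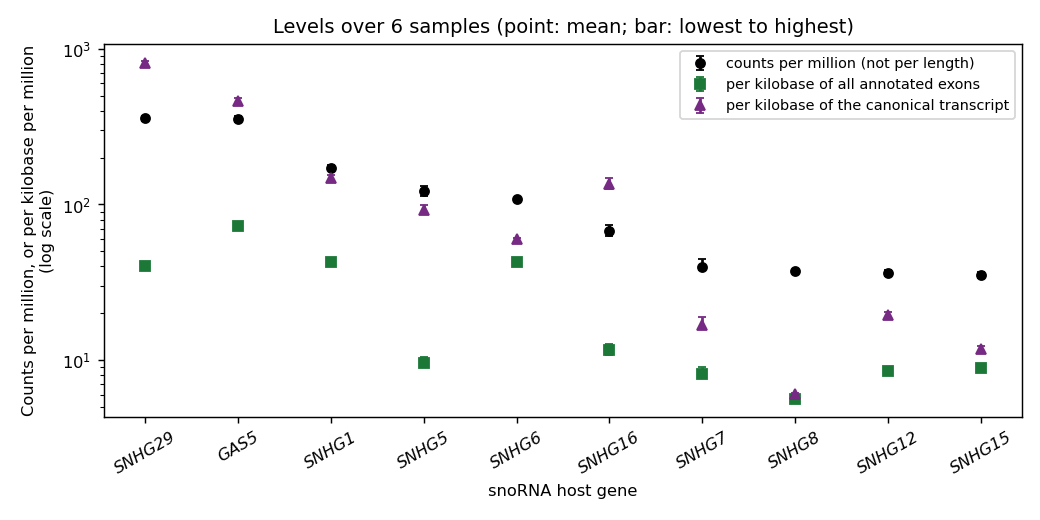
Levels of the 10 hosts as CPM (black) and as CPM per kilobase by either length (green and purple), on a log scale; points are means over 6 samples and bars run from the lowest to the highest sample. SNHG8 is lowest by both lengths, and SNHG16 moves from 11.6 to 135 between them.

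Of the snoRNA genes that GENCODE places inside the hosts, the table lists SNORD99, SNORD1B and SNORD87. Mature snoRNAs have no poly(A) tail. The 907 genes of the table that GENCODE types as snoRNA or scaRNA (small Cajal body RNA) together took 0.00379% to 0.00461% of the counts. Identifiers that GENCODE does not hold had no type, so any snoRNA genes among them are not included. SNORD99, inside SNHG12, had 41, 40 and 31 counts after Olaparib and 41, 36 and 37 after DMSO, a log2FC of 0.0039 with an interval of -0.39 to 0.40 (adjusted p = 0.993). SNORD1B, inside SNHG16, had 3, 0 and 3 counts after Olaparib and 4, 5 and 3 after DMSO, at or near the floor of 3 counts, so no change was measurable at this depth. SNORD87, inside SNHG6, had 0 counts in all 6 libraries, which allows up to 3 counts in each. Whether the reads of SNORD99 came from the snoRNA or from unspliced SNHG12 was not tested. The GENCODE sequences of the snoRNAs with counts follow, with the letters GATGA near the 5′ end (part of box C) and the last CTGA (box D) in capitals.
SNORD99 (chr1:28578749-28578822, minus strand): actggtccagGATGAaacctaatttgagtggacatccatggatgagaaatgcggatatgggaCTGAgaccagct
SNORD1B (chr17:76561109-76561192, plus strand): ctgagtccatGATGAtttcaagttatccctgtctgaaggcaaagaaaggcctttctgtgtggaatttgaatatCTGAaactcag

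Several hosts share exonic bases with other genes, which limits what their counts mean. The study's methods name a stranded library kit, but the strand setting of the counting is not given in the sources used here. The largest share is in SNHG6, where 62.4% of the exonic bases are shared, mainly with MCMDC2 on the other strand. MCMDC2 had 97.1 ± 18.6 (Olaparib) and 95.2 ± 10.1 (DMSO) normalized counts (SD, n = 3 each), far below SNHG6. For SNHG8 the share was 39.6%, with PRSS12 at 1908 ± 52.1 normalized counts in the Olaparib samples and 1910 ± 51.0 in the DMSO samples, more than SNHG8 itself. For SNHG7 it was 35.8%, with DIPK1B at 1084 ± 82.6 after Olaparib and 1020 ± 60.7 after DMSO. DIPK1B was highest in Olaparib replicate 2, as SNHG7 was, and its part in the SNHG7 counts was not tested. In SNHG16 the share was 31.1%, and in the other hosts it was 3.37% to 15.4%. On the same strand alone, it was 3.52% in SNHG6, 1.98% in SNHG8, 5.5% in SNHG7 and 2.6% in SNHG16. In SNHG1 and SNHG5 the whole share, 15.4% and 13.7%, was on the same strand.

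Among genes that start within 1000 bases of a host on the other strand, SLC3A2, which encodes the heavy chain of amino acid transporters, starts 51 bases from SNHG1. It had 10681, 11033 and 11068 normalized counts in the Olaparib samples and 10253, 10474 and 10656 in the DMSO samples. All Olaparib samples lay above all DMSO samples, as in 10.0% of all genes tested. The log2FC of SLC3A2 was 0.063 ± 0.029 (adjusted p = 0.282). ZBTB37, a zinc finger gene whose annotated start lies 800 bases inside GAS5, had a log2FC of -0.13 ± 0.051 (adjusted p = 0.162). Its Olaparib samples all lay below all DMSO samples, as in 9.29% of all genes tested. ENSG00000267546, a lncRNA gene 44 bases from SNHG16, had 65 counts in total and a log2FC of -0.10 (adjusted p = 0.945).

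Among other snoRNA host lncRNAs, DANCR and SNHG3 fell. Of a list of 21, 20 were matched and tested. None was called higher and 2 were called lower at an adjusted p under 0.05, where 1.21% of all genes were called lower. Their median log2FC was -0.078, with 5 positive and 15 negative. DANCR, host of SNORA26, had 1982, 1980 and 2054 normalized counts in the Olaparib samples and 2438, 2568 and 2478 in the DMSO samples. It fell from 2495 ± 66.5 to 2005 ± 42.1 (SD, n = 3 each), a log2FC of -0.32 ± 0.040 (edgeR adjusted p = 3.0e-06), with an interval of -0.40 to -0.23. SNHG3, host of SNORA73A and SNORA73B, had 2409, 2443 and 2394 normalized counts after Olaparib against 2809, 2792 and 2852 after DMSO. Its log2FC was -0.22 ± 0.038 (edgeR adjusted p = 3.0e-04), with an interval of -0.30 to -0.14. For both genes all Olaparib samples lay below all DMSO samples, as in 9.29% of all genes tested. Both calls held in each alternative and with each sample left out. The difference between these genes and the listed hosts was not itself tested. In DANCR 16.9% of the exonic bases overlap another gene, and in SNHG3 11%.

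**Figure D4:**
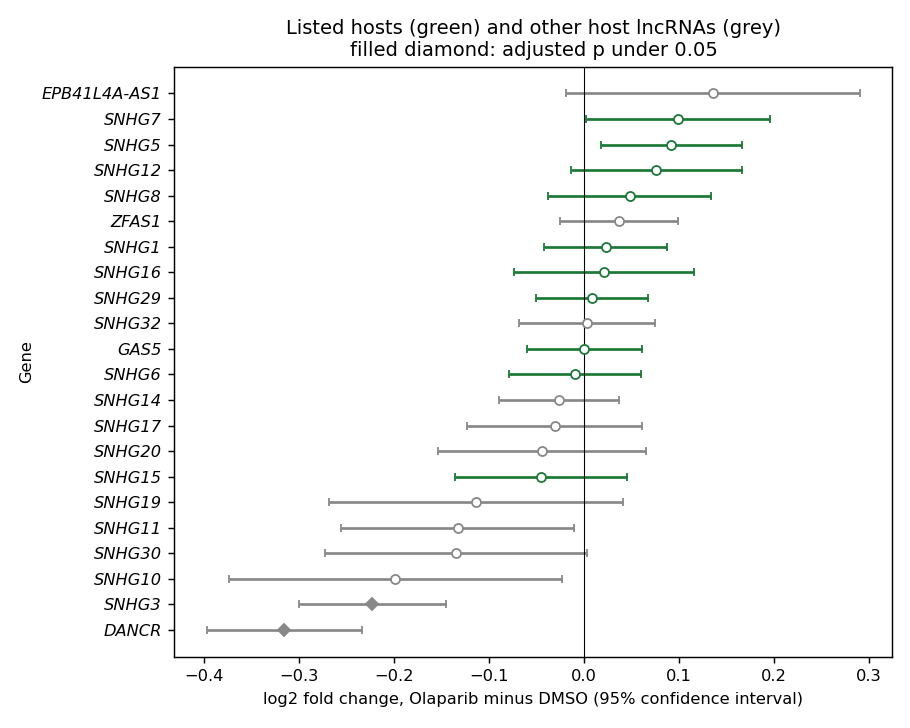
Log2 fold changes (horizontal axis) with 95% confidence intervals for the 10 listed hosts (green) and the 12 other host lncRNAs with at least 600 counts in total (grey); filled diamonds passed an adjusted p of 0.05. The listed hosts lie between -0.045 and 0.100, and DANCR and SNHG3 lie at -0.32 and -0.22.

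Of 13 protein-coding snoRNA hosts, 1 was called lower and none higher (all genes, 1.21% and 2.15%), with a median log2FC of 0.011. The gene called lower was EIF4A1, an RNA helicase of translation initiation, at 356 ± 19.7 normalized counts in the Olaparib samples and 462 ± 27.1 in the DMSO samples (log2FC -0.37 ± 0.064, edgeR adjusted p = 3.2e-04). Its counts are uncertain, since 47.4% of its exonic bases overlap other genes on the same strand, among them the readthrough gene SENP3-EIF4A1. NCL, the nucleolar protein nucleolin, had 39153 ± 1393 normalized counts with Olaparib and 38102 ± 1239 with DMSO (adjusted p = 0.586).

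Genes of the proteins that bind the snoRNAs gave 1 call. Of 10 tested genes for the box C/D particle and its assembly, 1 was called higher and none lower (all genes, 2.15% and 1.21%), with a median log2FC of 0.022. The core proteins were FBL, the methyltransferase, with a log2FC of -0.0023 (adjusted p = 0.989), NOP56 with 0.041 (adjusted p = 0.544), NOP58 with -0.021 (adjusted p = 0.809) and SNU13 with 0.0022 (adjusted p = 0.989). The gene called higher was RUVBL2, an ATPase of the assembly machinery, with 6364, 6583 and 6247 normalized counts in the Olaparib samples and 5920, 5968 and 5878 in the DMSO samples. Its log2FC of 0.11 ± 0.031 had an adjusted p of 0.0391, which lost significance without Olaparib replicate 2 (0.180) and without DMSO replicate 1, 2 or 3 (0.0687, 0.120 and 0.171), and was 0.0581 with upper quartile factors. Of the 6 genes for the box H/ACA particle, none was called at an adjusted p under 0.05 by edgeR, and 1 had an unadjusted p under 0.05, beside 14.8% of all genes. That gene was GAR1, a core protein, with a log2FC of -0.14 ± 0.053 (adjusted p = 0.173). The other core proteins had log2FCs of -0.014 (DKC1, the pseudouridine synthase), 0.071 (NHP2) and 0.0021 (NOP10), and the median of the list was 1.7e-04.

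Genes that act on the spliced hosts and on their starts gave few calls. Of 14 tested nonsense-mediated decay factors, 1 was called lower and none higher (all genes, 1.21% and 2.15%), with a median log2FC of 0.025. This was UPF3A, a paralog of UPF3B, at 654 ± 40.4 normalized counts in the Olaparib samples and 771 ± 44 in the DMSO samples (log2FC -0.24 ± 0.054, adjusted p = 0.00776). The adjusted p was 0.106 without Olaparib replicate 3 and 0.137 without DMSO replicate 1. The central helicase UPF1 had 9205 ± 264 normalized counts with Olaparib and 9009 ± 298 with DMSO. Of 15 tested transcripts with a pyrimidine start other than those of ribosomal proteins, 1 was called higher and none lower (all genes, 2.15% and 1.21%). It was VIM, which encodes vimentin, with a log2FC of 0.13 ± 0.032 (adjusted p = 0.0161), and 24.6% of its exonic bases overlap genes on the other strand. That call ended without Olaparib replicate 2 or 3 (0.0659 and 0.0620) and without DMSO replicate 1 or 2 (0.0954 and 0.163). The median of this list was 0.017. None of the 10 genes of the mTOR and LARP1 group, which controls such transcripts, was called, and 2 had an unadjusted p under 0.05, beside 14.8% of all genes. Its smallest adjusted p in the edgeR test was that of EIF4EBP1, an inhibitor of cap-dependent translation (0.152, log2FC 0.092), and its median log2FC was 0.047. None of the 14 genes of ribosomal RNA synthesis was called either, with 3 at an unadjusted p under 0.05 (again beside 14.8%) and a median log2FC of 0.0049. The smallest adjusted p there, 0.0853, was that of TAF1D, a subunit of the polymerase I selectivity factor and itself a snoRNA host, with a log2FC of -0.094.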

How the data were processed

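Poly(A) RNA of 6 UWB1.289 samples was sequenced. According to the study's methods, the authors trimmed reads with Trimmomatic, mapped them to GRCh38 with STAR, identified duplicates with Picard and counted reads per gene with featureCounts. The methods name a stranded library kit. Neither the strand setting of the counting nor any removal of duplicates is given in the sources used here. The deposited values are raw integer counts for each gene, which were used as they stood. No listed identifier is numbered above ENSG00000273493, while 10519 genes of GENCODE 44 are, so the identifiers look like those of an older gene set, possibly one made for the build before GRCh38, although the methods name GRCh38. The gene models behind the counts are therefore uncertain, and the coordinates, lengths and exon overlaps given here are those of GENCODE 44 on GRCh38 only. GENCODE 44 held 81.9% of the identifiers and 96.0% of those tested.

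Samples were grouped by their titles. Genes with more than 10 counts in total were fitted with edgeR 4.0.16 (TMM, quasi-likelihood test, R 4.3.3), without a replicate block, and p values were adjusted by Benjamini-Hochberg over all 21729 genes. Normalized counts are counts divided by the effective library size and scaled to the geometric mean library. Intervals are at 95% from the fit, and a floor of 3 counts covers counting error only. The alternatives were DESeq2 1.42.0, limma 3.58.1 with voom, other factors and filters, a replicate block and leaving out each sample. The test was tried on simulated data. All 10 hosts, the called genes of each list (at most 3 in each direction) and the core snoRNA-binding proteins were named. So were the genes that start within 1000 bases of a host on the other strand. Where a list had no call, the gene with the smallest p was named. NCL, UPF1 and the overlap partners were named after their values were seen. The members and lists were chosen with earlier results of these data known. SNHG4 and ZNHIT3 had no match in the table. EEF1G, of the list with a pyrimidine start, and RBM8A, of the decay factors, did not have more than 10 counts in total and were not tested.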

Additional observations from a re-analysis of the deposited data

How the results depend on the processing

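No listed host passed an adjusted p of 0.05 with other scaling factors, with DESeq2, with limma voom, with either other filter or with a fold threshold. With the replicate number as a block, 1 host passed (SNHG5, adjusted p = 0.0445 in edgeR's test), and 1322 genes in all against 730. The deviations of same-numbered samples correlated at -0.052, 0.082 and -0.047, and those of differently numbered samples at -0.13 to 0.16. With so few samples these correlations cannot decide whether the numbers pair the samples. With each sample left out, 0 to 2 hosts and 398 to 870 genes passed, and the 2 hosts were SNHG5 and SNHG7 without Olaparib replicate 1. The count of genes fell most without DMSO replicate 2 (398), and it was 401 without DMSO replicate 3 and 439 without Olaparib replicate 3. The median log2 fold change of the hosts lay between 0.0092 and 0.038 over all alternatives. Upper quartile factors turned GAS5 to -0.0084 and SNHG29 to -3.8e-04, and edgeR's filterByExpr turned GAS5 to -0.0017. With each sample left out, GAS5 ran from -0.030 to 0.026, SNHG1 from -0.0012 to 0.049, SNHG6 from -0.026 to 0.0084, SNHG16 from -0.025 to 0.099 and SNHG29 from -0.013 to 0.032, so none of these 5 has a direction. The cause was not tested. Of the 10 hosts, SNHG5, SNHG7, SNHG8, SNHG12 and SNHG15 kept their sign in all 13 alternatives. These alternatives reuse the same samples, so a kept sign does not establish a direction. The intervals of SNHG8, SNHG12 and SNHG15 include 0. The ratio of the highest to the lowest host was 12.8 per kilobase of all exons, 10.2 without a length, and 134 with the canonical length, an alternative added after seeing the data. Depth limits SNORD1B and SNORD87, which were at or near the floor.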
